A study of Mus musculus with 6 samples.

Results

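The genes described here encode the translation factors of mouse cells, the proteins that bring a ribosome to the start of an mRNA, move it along and release the finished protein. They were chosen by symbol from the deposited gene table: every symbol that begins with Eif or Eef and a digit, the release factor genes *Etf1*, *Gspt1* and *Gspt2*, the poly(A) binding protein genes named Pabpc with a digit, and *Larp1*. The pattern matched 79 rows, of which 7 pseudogenes were left out, and no symbol was repeated, which left 72 genes of 20624 in the table. The RNA came from mDCT15, an immortalized line of mouse kidney cells from the distal convoluted tubule, a part of the nephron that reabsorbs salt. There were 3 samples of wild type cells and 3 of Pkd1-/- cells, in which *Pkd1*, the gene of polycystin-1 that is mutated in polycystic kidney disease, had been edited with CRISPR/Cas9. The genotype field of the labels calls the edited cells a knockdown, and the sources used here do not say whether they are 1 clone. Both genotypes were grown in the same medium with serum, and no treatment is named.

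The value reported for each gene is the authors' mean normalized count, the read count after scaling for library size, averaged over all 6 samples. It covers both genotypes at once. No per-sample values were used, so no level has a replicate error, neighbours in an order of levels cannot be told apart by their spread, and no difference between Pkd1-/- and wild type cells is given. The authors' own comparison of the genotypes is not reported here. The mean of *Pkd1* itself was 3175, and a mean over both genotypes cannot check the edit. In a bulk sample, fewer cells and less RNA per cell cannot be told apart.

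Of the fixed list of 14 distal convoluted tubule markers, 10 had a row, and 7 of these had a mean normalized count of 100 or more. *Wnk1*, a kinase that regulates salt transport, was at 8468 and *Klhl3*, whose product helps degrade WNK kinases, at 5.70. The defining markers *Slc12a3*, the thiazide-sensitive salt transporter, *Pvalb* and *Calb1* had no row, nor did *Fxyd2*, so no level can be given for them. Of 9 markers of kidney epithelium, 6 had a row, and *Cdh1*, *Krt18* and *Krt19* had none. *Pax8* was at 4905, *Cdh16* at 4680, *Epcam* at 115 and *Krt8* at 0.980. All 6 markers of other cell types had a row, with *Vim*, an intermediate filament gene of mesenchymal and many cultured cells, at 17450, *Col1a1* at 201 and the other 4 between 2.71 and 5.36. Their part in the levels below was not tested.

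Translation begins when eIF2 carries the initiator tRNA to the small ribosomal subunit, which eIF1, eIF1A, eIF3 and eIF5 prepare for scanning. The eIF4F complex, built of the cap binding protein eIF4E, the scaffold eIF4G and the helicase eIF4A, brings this subunit to the capped end of an mRNA. During elongation eEF1A delivers aminoacyl-tRNAs, eEF1B recharges eEF1A with GTP, and eEF2 moves the ribosome to the next codon. Stress kinases that phosphorylate eIF2, and 4E-BPs that bind eIF4E when mTOR is inactive, are known brakes on initiation.

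Many mRNAs of ribosomal proteins and translation factors are known to begin with a C followed by a run of pyrimidines, the 5′ terminal oligopyrimidine tract, through which LARP1 and mTOR act on their translation. The annotated starts of the members were therefore read for it, using RefSeq sequences on GRCm38.p6, in which 54 of the 72 genes had at least 1 start. The stretches with the 4 longest tracts that begin within 5 bases of a start are shown, chosen by tract length alone. The tract of *Eef1a1* begins 5 bases before its annotated start and that of *Eif3l* 4 bases after, and neither start is itself a C. Each stretch covers 10 bases before the start and 20 from it on, in the direction of transcription, with the tract in capitals.
*Eif3f*, chr7:108934405-108934434, plus strand: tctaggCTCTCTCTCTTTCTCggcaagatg
*Eif2s3x*, chrX:94212632-94212661, minus strand: gagcattttCCTTTTCTCTCCgagcaagat
*Eef1a1*, chr9:78481705-78481734, minus strand: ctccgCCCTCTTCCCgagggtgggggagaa
*Eif3l*, chr15:79075213-79075242, plus strand: gagttcttcttccgCTCTCTCCCacgggct

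The tracts run over 15 bases in *Eif3f*, 12 in *Eif2s3x*, 10 in *Eef1a1* and 9 in *Eif3l*. With a C exactly at the annotated start and at least 4 C or T bases after it, on the transcribed strand, the tract was present in 2 of 54 members (3.70%), *Eif3f* and *Eif2s3x*. Of 11872 genes of the table with a start, 3.05% held it. Among 32 cytosolic ribosomal protein genes it was present in 8 (25.0%). The filter by symbol had dropped every gene named Rpl followed only by digits, so these 32 lack many genes of the large subunit. When the tract could begin up to 5 bases either side of the start, the counts were 15 of 54 members (27.8%), 23.8% of all genes and 16 of 32 of the ribosomal protein genes. With at least 6 C or T bases after the C, the share at the exact start was 3.70% in members and 1.36% in all genes, again the same 2 members, and within 5 bases it was 14.8% (8 of 54) and 8.50%. The members' shares were thus close to those of all genes under the shorter rule and above them under the longer one, on counts of 2 and 8 members and with no test. Under the longer rule the same 32 ribosomal protein genes were at 18.75% at the exact start and 43.75% within 5 bases. The match is a description of annotated letters, which depend on where the start was placed. A gene without a match is therefore not shown to lack the tract in its mRNA. The median level per kb of annotated exon was 259 for the 15 members with a tract within 5 bases and 302 for the other 39.

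As a group the translation factors were abundant. Levels of different genes are compared here only per kb, as the mean normalized count divided by the length of all annotated exons of the gene merged (GENCODE M39, GRCm39), a length that could be assigned to 97.6% of the genes in the table and to all 72 members. The median member was at 281 per kb, against 28.6 for all genes, and the median member stood at the 88.6th percentile. All genes here are those of any type with a length, pseudogenes and small RNA genes included. Of the 20624 genes, 5385 had a mean normalized count under 5, so the background is not matched to the members. Of the 72, 65 were above the median of all genes, 33 were in the top 10% and 7 in the top 1%. The members made up 0.349% of the genes and 1.83% of the summed mean normalized count. In mean normalized count, not divided by length, 50 members were at 1000 or more, 68 at 100 or more, and 3 under 10: *Eef1akmt3* at 9.88, *Pabpc1l* at 7.64 and *Eif4ebp3* at 4.72. Merged exons count every annotated isoform, so the same count was also divided by the length of 1 transcript, that with the longest coding sequence. Reads from exons outside that transcript stayed in the count. Genes whose merged exons are much longer than the transcript therefore rise most, and their values can be too high. Where a still shorter isoform makes up most of the RNA, both values can be too low, and isoform use was not tested. The length of 1 transcript raised the median member to 525 and the median of all genes to 45.5. The same 10 members came highest under both lengths.

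**Figure D1:**
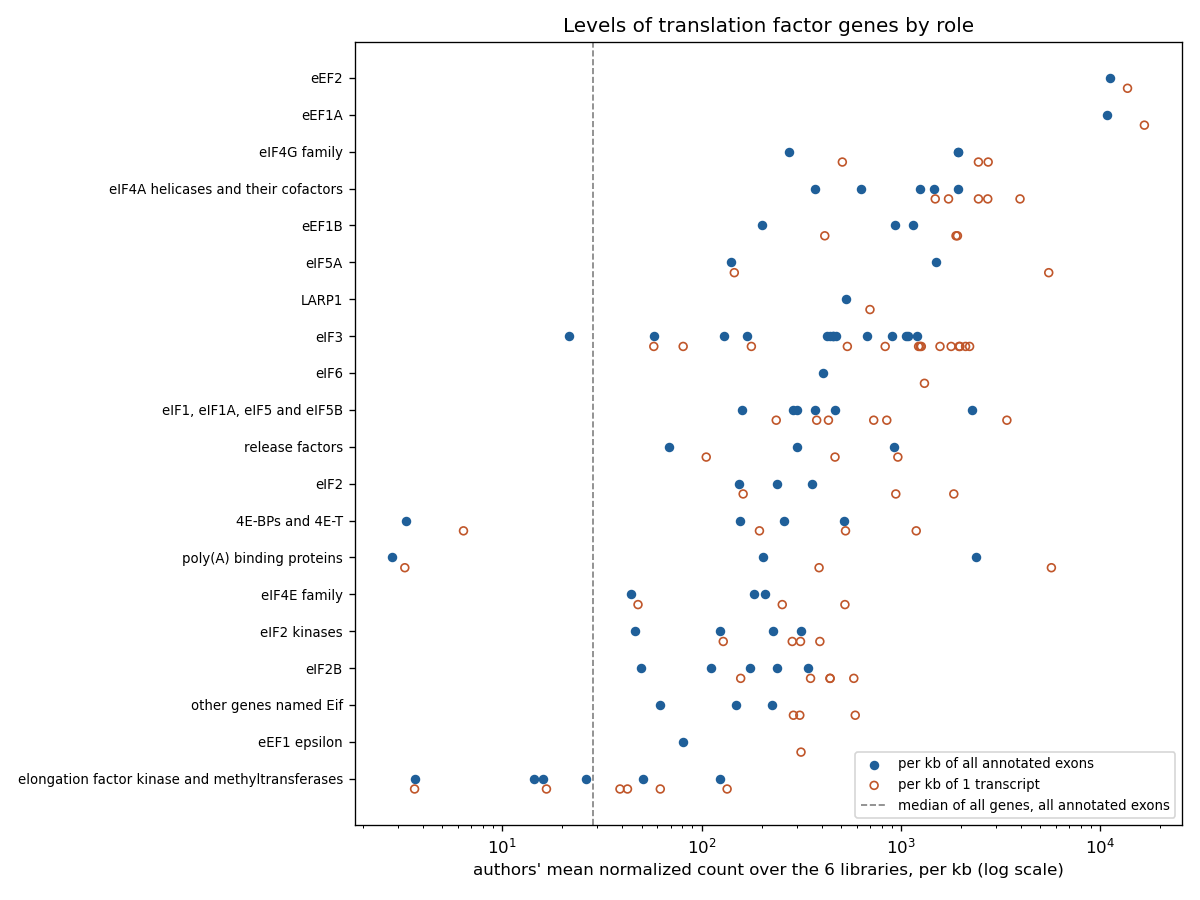
Levels of the 72 translation factor genes, grouped by role and ordered by the median of each role. The x axis is the authors' mean normalized count over the 6 libraries per kb on a log scale, filled points use all annotated exons, open points use 1 transcript, and the dashed line is the median of all genes (28.6 per kb). *Eef2* and *Eef1a1* stand alone at 11135 and 10774 per kb, and the kinase and methyltransferases of the elongation factors lie lowest.

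The elongation factors held the highest levels of all members. *Eef2* (ENSMUSG00000034994, GRCm39 chr10:81012465-81018348, plus strand) encodes the translocase and was at 11135 per kb. *Eef1a1* (ENSMUSG00000037742, chr9:78384916-78396778, minus strand) encodes the carrier of aminoacyl-tRNA and was at 10774 per kb. The ratio of *Eef1a1* to *Eef2* was 0.968 with merged exons. With 1 transcript *Eef1a1* was at 16634 per kb and *Eef2* at 13690, so the order of these 2 genes depends on the length used. Together they held 31.4% of the summed mean normalized count of the members, and the 10 members with the most counts held 62.1%. The tissue-restricted paralog *Eef1a2* had no row.

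The exchange complex eEF1B lay well below its partner. *Eef1b2*, a catalytic subunit, was at 1149 per kb, *Eef1g*, the structural gamma subunit, at 936, and *Eef1d*, another exchange subunit, at 200. *Eef1a1* was 9.38 times the level per kb of *Eef1b2*, 11.5 times that of *Eef1g* and 53.9 times that of *Eef1d*. With 1 transcript these ratios were 8.66, 8.81 and 40.1. The transcript used for *Eef1d* has 5422 bases, against 1993 for *Eef1b2* and 1610 for *Eef1g*. In mean normalized count, not divided by length, *Eef1b2* was at 3826, *Eef1g* at 3041 and *Eef1d* at 2249. The size of the gap between *Eef1d* and the other subunits thus depends on the isoform lengths. *Eef1e1*, whose product belongs to the aminoacyl-tRNA synthetase complex, was at 80.5 per kb. Enzymes that modify the elongation factors were at the low end of the whole group. *Eef2k*, the kinase that inhibits eEF2, was at 50.5 per kb, so that *Eef2* stood 220 times higher. The methyltransferase genes of eEF1A ranged from 3.63 (*Eef1akmt3*) to 124 per kb (*Eef1akmt1*), and *Eef2kmt*, which encodes that of eEF2, was at 14.4.

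Among the initiation factors, 4 genes lay between 1922 and 2272 per kb with merged exons. *Eif1*, whose product guards the choice of start codon, was at 2272, *Eif4g1* (ENSMUSG00000045983, chr16:20487063-20511654, plus strand) at 1935, *Eif4g2* at 1924 and *Eif4b*, a cofactor of eIF4A, at 1922. *Eif4g1* and *Eif4g2* held 46.8% and 46.6% of the level per kb of their family and *Eif4g3* 6.62%. The product of *Eif4g2* lacks the part of eIF4G that binds eIF4E, so these nearly equal levels belong to a scaffold of cap-dependent initiation and to a relative that cannot join eIF4F in the usual way. *Eif4a1*, the main helicase gene, was at 1469 per kb and held 69.9% of the sum with its close paralog *Eif4a2* at 632. *Eif4h*, a second cofactor, was at 1243, and *Eif4a3*, whose product is a core part of the exon junction complex, was lowest of the helicase group at 369. These orders changed with 1 transcript, where *Eif5a* at 5510 and *Eif4a1* at 3955 stood above *Eif1* at 3399 and *Eif4g1* at 2738. *Eif4h* at 2725 then stood above *Eif4b* at 2447 and *Eif4g2* at 2446, and *Eif4a3* at 1732 above *Eif4a2* at 1486.

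*Eif4e* was the lowest component of eIF4F, at 208 per kb. *Eif4g1* was 9.30 times and *Eif4a1* 7.06 times its level, and with 1 transcript these ratios were 10.8 and 15.6. The related cap binding gene *Eif4e2* was at 184 and *Eif4e3* at 44.1. The leading member of the cap binding family changed with the length: *Eif4e* held 47.8% with merged exons and 30.8% with 1 transcript, where *Eif4e2* held 63.4%. The repressors that compete with eIF4G for eIF4E were led by *Eif4ebp2* at 521 per kb (76.6% of the 4E-BPs). *Eif4ebp1* was at 155 and *Eif4ebp3* at 3.30. The summed level per kb of the 3 genes was 3.27 times that of *Eif4e*, and 5.49 times with 1 transcript. The transcript used for *Eif4ebp1* has 7353 bases with a coding sequence of 519, and that for *Eif4ebp2* 2738 with 366. In mean normalized count, not divided by length, they were at 1434 and 3266. The size of the lead of *Eif4ebp2* and these sums therefore depend on the isoform lengths. *Eif4enif1*, which encodes the 4E-T protein that carries eIF4E into the nucleus and to P-bodies, was at 259.

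eIF2 binds the initiator tRNA. Its alpha subunit gene *Eif2s1*, which carries the serine that stress kinases phosphorylate, was at 240 per kb, the beta subunit gene *Eif2s2* at 357 and the gamma subunit gene *Eif2s3x* at 155. These subunits are known to form a complex with 1 copy of each. The highest was 2.31 times the lowest with merged exons and 11.4 times with 1 transcript, with *Eif2s2* highest and *Eif2s3x* lowest under both. The Y-linked relative *Eif2s3y* had no row.

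eIF2B exchanges the nucleotide on eIF2 and is the site where phosphorylated eIF2 acts. The regulatory subunit genes *Eif2b2*, *Eif2b4* and *Eif2b1* were at 343, 240 and 112 per kb. Those of the catalytic part, *Eif2b5* and *Eif2b3*, were at 174 and 49.7. The ratio of the highest to the lowest was 6.89 with merged exons. It was 3.69 with 1 transcript, where *Eif2b5* came first in place of *Eif2b2* and *Eif2b3* remained last. All 4 kinases of eIF2 had a row. *Eif2ak2* (PKR, activated by double-stranded RNA) was at 315 per kb, *Eif2ak3* (PERK, of the endoplasmic reticulum) at 228, *Eif2ak1* (HRI, activated by heme deficiency) at 124 and *Eif2ak4* (GCN2, activated by uncharged tRNA) at 46.3. *Eif2ak2* held 44.2% of their summed level per kb and led under both lengths.

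eIF3 is the largest initiation factor and was represented by 14 genes, since 2 genes encode eIF3j. *Eif3a*, *Eif3b* and *Eif3c*, which encode core subunits that hold the complex together, were at 1198, 1087 and 1058 per kb. *Eif3l* was at 897 and *Eif3g* at 674. Below these came *Eif3f* at 474, *Eif3h* at 457, *Eif3k* at 455, *Eif3d* at 438 and *Eif3i* at 424. *Eif3e* was at 169 and *Eif3m* at 129. The 2 genes of eIF3j, a loosely attached subunit, were lowest, with *Eif3j2* at 57.6 and *Eif3j1* at 21.7. The highest was 55.2 times the lowest over all 14 genes and 9.28 times over the 12 genes without eIF3j. *Eif3e* stood at 1265 per kb with 1 transcript, close to the median of 1256 for the 14 genes. The low place of *Eif3e* thus depends on the length used. *Eif3m* was at 178, but its transcript has 5941 bases with a coding sequence of 1224, against 1576 and 1356 for *Eif3e*. A shorter isoform would place *Eif3m* higher, and the ratio of 9.28 rests on that gene. The genes between 424 and 474 per kb with merged exons spread out with 1 transcript, where *Eif3f* was at 538, *Eif3d* at 833, *Eif3h* at 1248, *Eif3i* at 1569 and *Eif3k* at 1785.

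**Figure D2:**
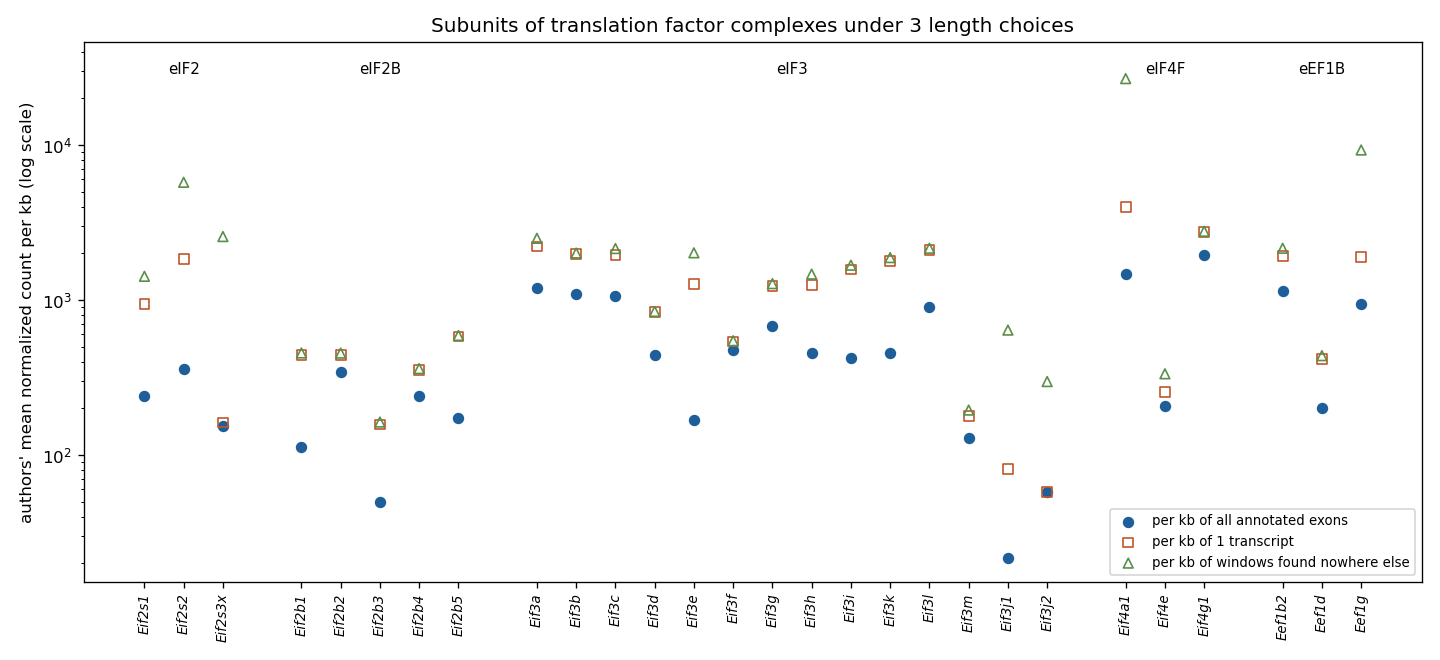
Subunits of the initiation and elongation complexes. The y axis is the authors' mean normalized count per kb on a log scale, where circles use all annotated exons, squares 1 transcript and triangles the part of that transcript whose 42-base windows are found nowhere else. The symbols differ only in the length, and the count divided is always that of the whole gene. *Eif2s3x*, *Eif4a1*, *Eef1g*, *Eif2s2* and the 2 eIF3j genes move most between squares and triangles, while the eIF2B subunits hardly move.

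The factors of scanning and subunit joining other than *Eif1* were moderate. *Eif5*, which encodes the protein that makes eIF2 hydrolyse GTP at the start codon, was at 466 per kb and *Eif5b*, whose product joins the subunits, at 302. *Eif1ax* was at 371 and *Eif1a* at 288 with merged exons, while with 1 transcript *Eif1ax* held 33.8% of the pair instead of 56.2%. *Eif1* held 93.5% of the sum with *Eif1b*, which was lowest of the role at 159. *Eif5a*, which encodes the hypusine-bearing factor that relieves stalled ribosomes, was at 1500 per kb and held 91.4% of the sum with *Eif5a2* at 141. *Eif6*, whose product keeps the ribosomal subunits apart, was at 404. Of the other genes that carry the name, *Eif1ad* was highest at 226 and *Eif2d* lowest at 62.1.

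At the end of translation, *Etf1*, which encodes the stop codon reader eRF1, was at 923 per kb. Of the genes of its GTPase partner eRF3, *Gspt1* was at 302 and *Gspt2*, a copy without introns in the coding part, at 68.4, so that *Gspt1* held 81.5%. *Pabpc1*, the main cytoplasmic poly(A) binding protein gene, was at 2376 per kb, below *Eef1a1* and above *Eif1*, and held 92.0% of its family. *Pabpc4* was at 203 and *Pabpc1l*, known from oocytes, at 2.80. *Larp1*, which encodes the repressor that binds the start of tract-bearing mRNAs, was at 532.

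The levels also depend on how many reads of a gene can be placed. The study sequenced paired reads of 42 bases and counted them with default settings, under which a read with several positions is dropped. Each 42-base window of 1 transcript per member was searched for in the GRCm39 genome outside the gene. Of all windows of the members, 11.6% had an exact copy elsewhere, and 5.68% with 100-base windows. The shares are not shares of lost reads. The mate of a read can settle its position, and only exact copies of 1 transcript were searched for.

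Among members with a mean normalized count of at least 100, 24 of 68 (35.3%) had at least 10% of their windows elsewhere. The share was 11.8% of the 10111 genes with a coding sequence and the same minimum count, the members among them. The sets share this minimum and were not matched for level, and 50 members were at 1000 or more. At least 50% was reached by 8 (11.8%), against 2.66%. The median share was 2.54% in these members and 0.0504% in those genes. Over all 72 members, 17 had no window elsewhere. The 8 were *Eif2s3x* (93.6%), *Eif3j1* (87.1%), *Eif4a1* (84.9%), *Eif3j2* (80.3%), *Eef1g* (79.1%), *Pabpc4* (73.8%), *Eif2s2* (67.0%) and *Eif1* (54.8%). They include the lowest subunit of eIF2 and the lowest genes of eIF3, and their levels are uncertain. The most abundant members were touched less evenly, with 45.5% for *Eef1a1* and 16.9% for *Eef2*.

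**Figure D3:**
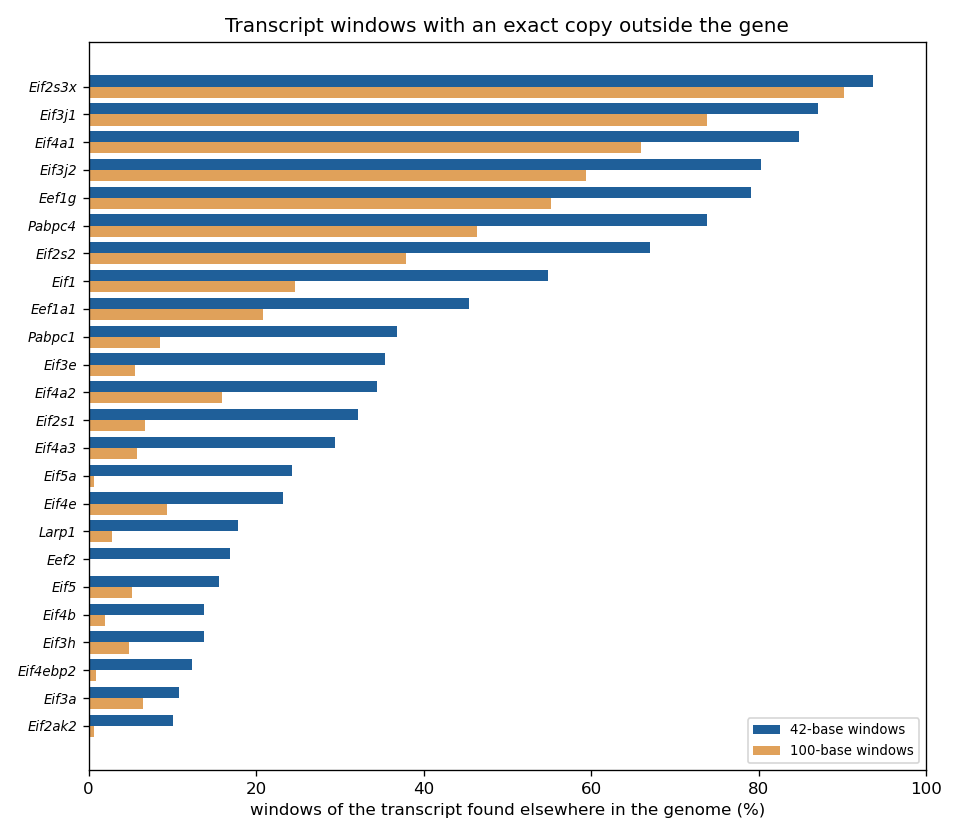
Share of transcript windows with an exact copy elsewhere in the genome (x axis, %) for the 24 members with at least 10% of their 42-base windows elsewhere. Blue bars use 42-base and orange bars 100-base windows: *Eif2s3x* stays at 90.2% with the longer windows, while *Eef2* falls from 16.9% to 0.0662%.

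The copies are mostly processed pseudogenes. With a near copy defined as a place that shares at least 100 windows and 10% of the windows of a member, 21 members had 53 near copies, 44 of them annotated as pseudogenes, and 36 with an annotated gene that had its own row. The copy of *Eef1g* (GRCm39 chr19:8944369-8955843, plus strand) on chromosome 7, *Gm4366* (chr7:116423681-116425088), shared 71.6% of its windows and had a mean normalized count of 731, not divided by length, as are the other counts of copies given here. *Eef1a1* had 8 near copies, the closest of which, *Gm13456* on chromosome 2, shared 31.0% of the windows and was at 168, and *Gm6548* on chromosome 17 was at 191. *Eif2s3x* (chrX:93232313-93256468, minus strand) shared 93.6% of its windows with *Gm2223* on the same chromosome, which was at 26.5. *Eif4a1* shared 83.6% with *Eif4a-ps4*, at 87.2. How reads were split between each gene and its copy was not tested.

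The eIF3j genes are near copies of each other. *Eif3j1* (chr2:121858606-121906334, plus strand) has 8 exons in the transcript used, and *Eif3j2* (chr18:43608483-43610861, minus strand) has 1. *Eif3j1* found 87.1% of its windows in *Eif3j2*, and 80.3% of those of *Eif3j2* lay in *Eif3j1*. Divided by the windows found nowhere else, they stood at 638 and 297 per kb, and *Eif3j1* came first, as with 1 transcript. On that scale *Eif2s3x* rose to 2562 per kb, above *Eif2s1* at 1419 and below *Eif2s2* at 5736. The count of the whole gene is divided here by only those windows of 1 transcript, so these values are not corrected levels. They can be too high where such windows are few. The same scale put *Eif4a1* at 26762 per kb, above *Eef2* at 16696.

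Reads can also be shared with genes on top of a member. At least 10% of the merged exon length was shared with another annotated gene for 24 members, on the same strand for 5 and on the other strand for 21. The strand setting is known only as the counter's default. The highest share on the other strand was 60.4% in *Eef2kmt*, and the highest on the same strand 35.0% in *Eif4ebp3*, so the low levels of these genes are uncertain too. Introns or exons of 10 members held 20 annotated genes of small nucleolar RNAs, which guide modification of ribosomal and other RNA, and 10 of those had a row. Their mean normalized counts lay between 0.742 (*Snord66*, within *Eif4g1*) and 19.2 (*Gm25835*, within *Eif4a1*). The members themselves lay on 19 autosomes and the X chromosome, with 3 on the X.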

How the data were processed

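RNA of 3 wild type and 3 Pkd1-/- mDCT15 samples was sequenced in pairs of 42 bp after removal of ribosomal RNA. Per the submitters' processing notes and the methods of the study, reads were trimmed with Trim Galore 0.4.5, mapped to GRCm39 with STAR 2.7.5a, counted with HTSeq 0.11.0 at default parameters and compared with DESeq2 1.22.0 in R 3.5.3. The signal used here is the authors' mean normalized count per gene over all samples. The 5 other numeric columns hold the authors' comparison of the genotypes, that is a log2 fold change, its standard error, a statistic, a p-value and an adjusted p-value, and were not used. The table used has 0 columns of single samples, so depth per sample is unknown and no interval or test is given. The study states a minimum of 5 counts per sample, yet 5385 genes have a mean under 5 and the lowest is 0.618.

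Lengths came from GENCODE M39. Windows of 42 bases were searched as exact matches on both strands, and the search was tested on simulated sequence. The planned test of counts per sample could not be made. The members and lists were chosen with earlier results of these data known. Every subunit of the complexes, all release factors, poly(A) binding proteins, 4E-BPs, eIF2 kinases and paralog pairs are named, with the highest and lowest of every other role, the 10 highest members and those with a mean under 10. The value of 1 marker gene is not reported here. *Eif1a* was put in its role after the table was seen. Alternatives were another length, other filters, 100-base windows and other tract rules. Python 3.11.15, numpy 2.4.6, pandas 2.3.3, numba 0.67.0 and matplotlib 3.10.9 were used.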

Additional observations from a re-analysis of the deposited data

How the results depend on the processing

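The median level of the members was 281 per kb with merged exons, 525 with 1 transcript per gene and 302 over members with a mean of at least 10. No symbol was repeated, so summing repeated symbols could change nothing. With 1 transcript, the ratio of the highest to the lowest subunit moved from 2.31 to 11.4 in eIF2, 6.89 to 3.69 in eIF2B, 55.2 to 38.4 in eIF3, 9.30 to 15.6 in eIF4F, 5.75 to 4.63 in eEF1B and 13.5 to 9.14 in the release factors. Both lengths can exceed that of the main isoform of a gene, and isoform use was not tested. Leaving out subunits with at least 50% of their windows elsewhere gave 9.28 for eIF3 and the same ratio for eIF4F and eEF1B. That left 1 subunit of eIF2, so no ratio could be had there. Of 11 paralog families, 8 kept their leading member with 1 transcript and 8 with windows found nowhere else, and the exceptions were eIF1A, eIF3j and eIF4E under both. The share of windows elsewhere was 11.6% at 42 bases and 5.68% at 100. The share with a tract was 3.70% in members and 3.05% in all genes. With at least 6 pyrimidines it was 3.70% and 1.36%, and within 5 bases of the start 27.8% and 23.8%, or 14.8% and 8.50% with at least 6.

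No paired analysis was possible because the table used has no values of single samples. For the same reason the alternatives set out for a difference between genotypes (another normalization, leaving out each replicate, the replicate block) were not run. Without a replicate error, none of the ratios can be set against a spread.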
